A study of Homo sapiens with 9 samples.

Results

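The genes of the proteasome were taken from RNA sequencing of the established cell line FaDu, which derives from a human squamous carcinoma of the hypopharynx. A gene was a member if it was annotated as protein coding and its symbol began with PSMA to PSMG followed by a digit. The rule gave 49 genes of the 58735 in the count table, and 47 of them were among the 16812 genes with enough counts to be tested. One member, PSMC3IP, matches the name pattern but encodes a meiotic recombination protein and no part of the proteasome. The other 48 encode the core particle, the regulatory particle, their assembly chaperones, activators and 1 inhibitor.

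The study set out to examine AMIGO2, a cell surface adhesion protein, and CAPN2, the large subunit of a calpain protease, in this line. It held 9 bulk libraries in 3 groups of 3 biological replicates: control cells, cells labelled as AMIGO2 knockdown, and cells labelled as AMIGO2 knockdown with CAPN2 overexpressed. Both of the latter share the knockdown label. All groups were grown in the same medium with serum and had no further treatment, and the sources used here do not say how the knockdown and the overexpression were made. Every library came from 1 cell line, and the p-values measure the spread between these cultures alone. Below, the groups are called control, knockdown-labelled and CAPN2-labelled.

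The proteasome degrades proteins that carry ubiquitin chains. Its core is a barrel of outer alpha rings and inner beta rings, in which PSMB5, PSMB6 and PSMB7 carry the cutting sites, and immune signals such as interferon gamma raise PSMB8, PSMB9 and PSMB10, which replace them in new particles. A regulatory particle on the end of the barrel has a base, whose ATPases unfold the substrate, and a lid, which removes the ubiquitin chain. Many of these genes are under the control of the transcription factor NFE2L1 (NRF1), which binds antioxidant response elements, and CCAAT boxes are common in their promoters.

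Promoter sequence was available for 43 of the 49 members, as 300 bases from 250 before the RefSeq start (GRCh38.p14). The windows are shown because these elements are the known promoter elements of this gene family, and because the members moved together in the CAPN2-labelled libraries. The core of the antioxidant response element, TGACNNNGC on either strand, was in 13 of the 43 (30.2%), against 13.6% of the 27305 promoters in the table. CCAAT on either strand was in 20 of the 43 (46.5%), against 35.7% of all promoters. TTCNNNGAA, the gamma-interferon activated site, was in 5 of the 43 (11.6%), against 7.88% of all. In the 10396 promoters of tested protein-coding genes these shares were 15.0%, 36.3% and 6.35%, in the same order of motifs. Each motif was searched alone, so that matches of different motifs may overlap. The lines are examples and not full sets. They hold antioxidant response element cores outside annotated exons, with the 9 matched bases in capitals. CCAAT boxes within 100 bases of the start, also outside annotated exons, follow with the box in capitals.
PSMB3, beta ring, chr17:38752612-38752670, plus strand: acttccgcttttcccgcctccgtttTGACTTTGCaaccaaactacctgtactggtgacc
PSMD12, lid, chr17:67366709-67366767, minus strand: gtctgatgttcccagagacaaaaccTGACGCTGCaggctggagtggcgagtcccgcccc
PSMB9, inducible catalytic, chr6:32854019-32854077, plus strand: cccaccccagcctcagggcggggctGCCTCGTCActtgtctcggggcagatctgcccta
PSMD9, base chaperone, chr12:121888663-121888721, plus strand: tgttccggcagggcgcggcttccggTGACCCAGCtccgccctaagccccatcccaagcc
PSME1, activator, chr14:24136083-24136141, plus strand: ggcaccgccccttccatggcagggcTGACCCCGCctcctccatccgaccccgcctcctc
PSMB3, beta ring, chr17:38752661-38752715, plus strand: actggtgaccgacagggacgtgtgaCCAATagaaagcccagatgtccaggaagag
PSMA5, alpha ring, chr1:109426473-109426527, minus strand: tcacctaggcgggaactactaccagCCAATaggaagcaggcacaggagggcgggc
PSMD8, lid, chr19:38374458-38374512, plus strand: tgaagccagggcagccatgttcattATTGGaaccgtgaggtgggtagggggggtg
Each sequence reads 5′ to 3′ on the gene's strand, and capitals in the PSMB9 and PSMD8 lines are the motif as read from the opposite strand. Among tested members with a promoter, CCAAT was in 19 of the 31 that fell from knockdown-labelled to CAPN2-labelled libraries (61.3%) and in 0 of the 10 that did not pass the test. Those 10 include PSMA1, PSMA6, PSMB10 and PSMD9, which share 60.0% to 91.0% of their coding bases with other annotated genes. PSMA2, which shares all of them, is among the 31. Every tested member without a promoter window fell in that comparison. Split by the comparison of CAPN2-labelled with control libraries, CCAAT was in 17 of the 34 that fell and in 2 of the 7 that did not pass. In the first of these splits the antioxidant response element core was in 9 of the 31 and in 4 of the 10. PSMB3, which has both elements, had the largest fall from knockdown-labelled to CAPN2-labelled libraries, while PSME1 has the antioxidant element and did not pass. A match is a run of letters and not a shown binding site, and these shares were not tested. The same splits were not made over all genes tested, so they cannot show whether the pattern is particular to the members.

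Totals ran from 15158607 to 19737562 counts per library, so that 3 counts corresponded to 0.152 to 0.198 CPM (counts scaled to a common library total). Levels are CPM after scaling by trimmed mean of M values (TMM). AMIGO2 was not lower in the libraries labelled as its knockdown, with a log2 fold change of 0.01 (adjusted p = 0.971) against control, and it was higher in the CAPN2-labelled ones, by 0.50 (adjusted p = 0.00106). CAPN2 was higher in CAPN2-labelled than in knockdown-labelled libraries by 0.26 (adjusted p = 0.012), and not past the threshold against control, at 0.11 (adjusted p = 0.254). The labels are therefore used as names, and every direction below is between libraries labelled that way. All 8 squamous markers were tested, and their summed level was 7800 to 8302 CPM in control, 4089 to 5186 in knockdown-labelled and 4467 to 5095 in CAPN2-labelled libraries. KRT5 averaged 4437, 1207 and 1616 CPM of this sum in the same order. In knockdown-labelled against control libraries 5 of the 8 were lower, beside 18.5% of all genes tested. CDH1 was higher there, by 0.26 (adjusted p = 0.0181), and KRT17 and EPCAM did not pass. Of 10 markers of blood and immune cells only CD14 and ITGAM had enough counts to be tested, and MS4A1 and CD2 had no count in any library.

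Between the control and CAPN2-labelled libraries, nearly the whole proteasome was lower. Summed over the 48 proteasome genes, the level was 6343, 6554 and 6471 CPM in control, 5604, 5586 and 6606 in knockdown-labelled, and 3776, 3883 and 3942 in CAPN2-labelled libraries. The CAPN2-labelled libraries stood below all others, at 0.652 of the knockdown-labelled mean and 0.599 of the control mean, whereas the knockdown-labelled ones overlapped the controls (ratio 0.919). In bulk RNA, fewer cells with a transcript and less of it per cell cannot be told apart.

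Against control, 11 of the 47 tested members were lower in knockdown-labelled libraries, where 18.5% of all genes tested were lower, and 1 was higher, where 16.0% of all were. The median log2 fold change of the members was -0.08, beside -0.01 over all genes tested. At 17 members all knockdown-labelled libraries lay below all controls, as for 24.1% of all genes. The members called lower made up 23.4% of those tested. Without the third knockdown-labelled library they numbered 19 of 47, beside 18.1% of all genes in that fit.

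From knockdown-labelled to CAPN2-labelled libraries, 37 of 47 members were lower (78.7%), beside 25.6% of all genes, and 0 were higher, beside 23.7%. At 36 members the CAPN2-labelled libraries all lay below the knockdown-labelled ones, as for 26.9% of all genes. The members' median was -0.51 and that of all genes 0.01, and 45 of the 47 fold changes were below 0. All genes tested were not matched to the members for level. The median control level was 141 CPM for the 37 lower members and 15.4 CPM over all genes. Fold changes fell with control level over all genes (Spearman's rho -0.265 here and -0.372 for CAPN2-labelled against control) and over the members (-0.427 and -0.519). For knockdown-labelled against control these were -0.195 and -0.296, and the part of level was not tested. In both comparisons against control the same control libraries also enter the fold change. Their noise alone can push rho below 0 there, so those values and the one from knockdown-labelled libraries are not alike. Calls were made with edgeR's quasi-likelihood test at an adjusted p under 0.05 over all genes tested. At the same threshold DESeq2 also called 0 members higher and 37 lower, and at an unadjusted p under 0.05 both tools had 0 higher.

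Against control, the CAPN2-labelled libraries had 40 of 47 members lower (85.1%), beside 28.4% of all genes, and 0 higher, beside 27.9%. For 40 members the libraries did not overlap and were lower, as for 33.6% of all genes. DESeq2 gave 0 higher and 40 lower, and at an unadjusted p under 0.05 edgeR had 1 higher, PSMA6, and DESeq2 0. The median log2 fold change was -0.64, beside 0.02 over all genes, and -0.54, beside 0.13, with upper-quartile scaling. The 3 comparisons share libraries, so their values are set side by side and are not independent of each other. PSMA1, PSMA6, PSMC6, PSME1 and PSME4 passed the test in none of them.

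**Figure D1:**
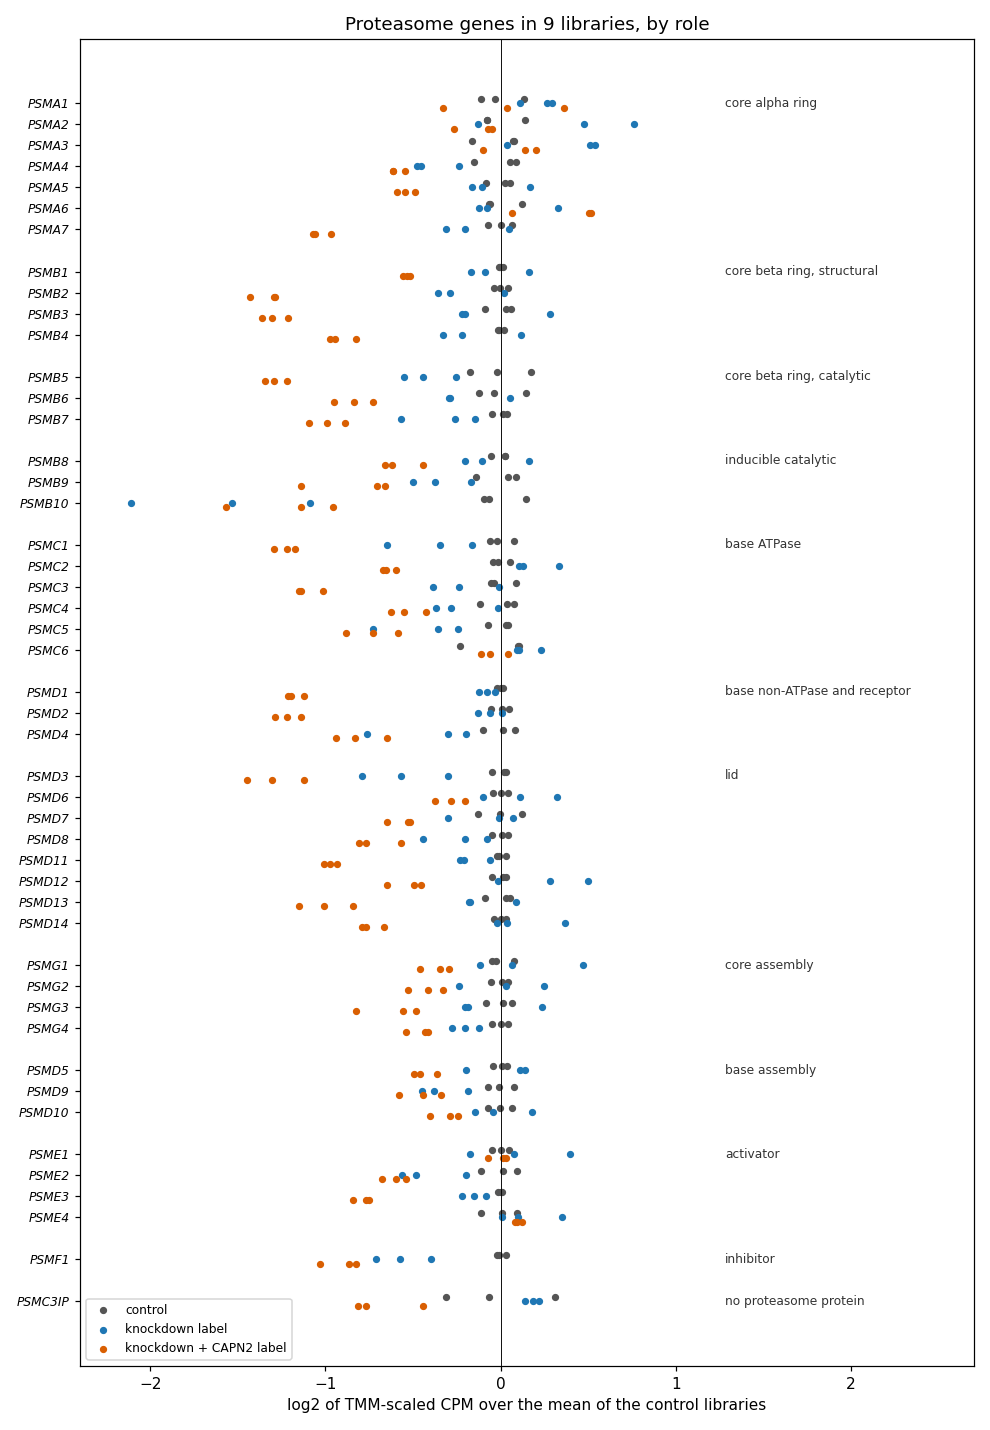
Level of each tested member in each library, as the log2 ratio of its TMM-scaled CPM to the mean of the control libraries, grouped by role. Grey points are control, blue knockdown-labelled and orange CAPN2-labelled libraries; the orange points lie left of the others for most members, and PSMA1, PSMA3, PSMA6, PSMC6, PSME1 and PSME4 are among those where they do not.

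**Figure D2:**
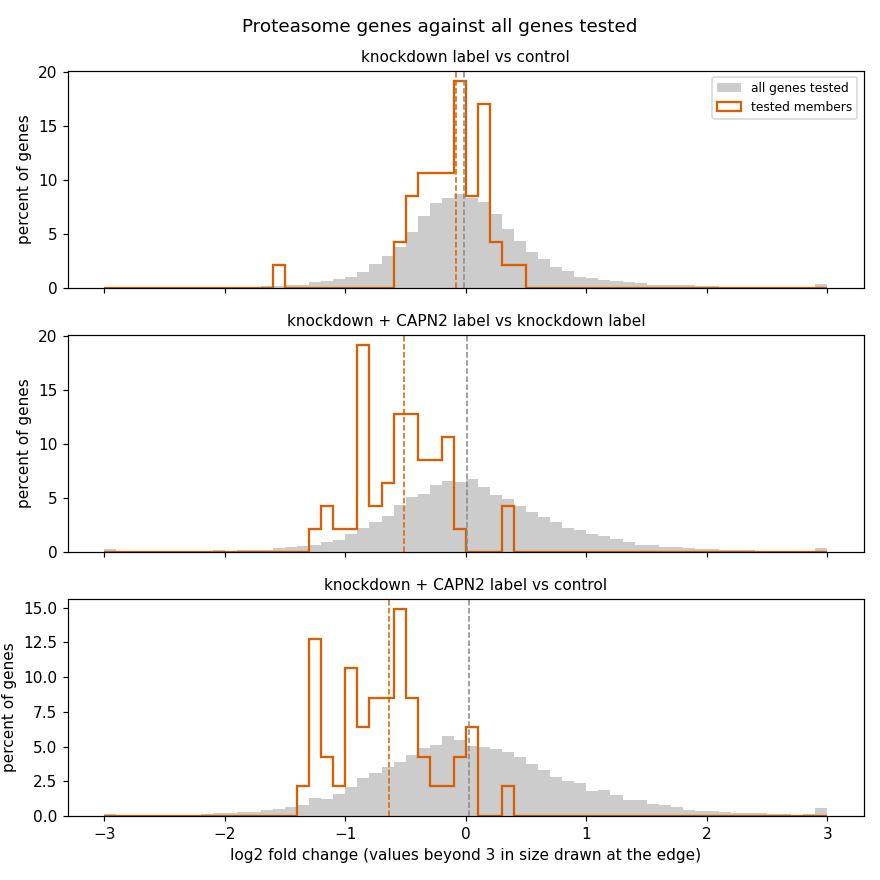
Log2 fold changes of the 47 tested members (orange outline) and of all 16812 genes tested (grey), as percent of each set, with dashed lines at the medians. The member median is -0.08, -0.51 and -0.64 from the top panel to the bottom one, and that of all genes -0.01, 0.01 and 0.02.

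Among the groups of core and regulatory particle subunits, the alpha ring, which gates the barrel, had the most genes not past the test. This held in both comparisons of the CAPN2-labelled libraries. From knockdown-labelled libraries these genes were PSMA1, PSMA4 and PSMA6, and against control PSMA1, PSMA2, PSMA3 and PSMA6. Counts of PSMA1, PSMA2 and PSMA6 are uncertain, as given below, and the part of this in the ranking was not tested. Of the 7 alpha ring genes, 4 were lower from knockdown-labelled to CAPN2-labelled libraries and 3 were lower against control. PSMA7 measured 316, 331 and 300.1 CPM in control, 274, 254 and 327 in knockdown-labelled and 151, 150.4 and 161 in CAPN2-labelled libraries. The CAPN2-labelled libraries were lower than the other 6 without overlap, with a log2 fold change of -0.88 (SE 0.10, adjusted p = 4.05e-07) against knockdown-labelled and -1.03 (SE 0.10, adjusted p = 3.27e-08) against control. PSMA4 had 208, 180.0 and 213 CPM in control, 146, 144 and 169.6 in knockdown-labelled and 131, 137 and 131 in CAPN2-labelled libraries. It fell in knockdown-labelled libraries by 0.39 on the log2 scale (SE 0.09, adjusted p = 0.00297), and was the alpha gene with the largest fall there.

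PSMA3 was the only member called higher in the knockdown-labelled libraries. Its levels were 155, 131 and 154 CPM in control, 151, 209 and 213 in knockdown-labelled and 169, 161 and 137 in CAPN2-labelled libraries. One knockdown-labelled library lay within the control range. The log2 fold change was 0.38 (SE 0.12, adjusted p = 0.0184) against control and -0.30 (SE 0.12, adjusted p = 0.0464) from there to the CAPN2-labelled libraries. Neither call was stable: the rise had an adjusted p of 0.104 without the second control library, 0.0519 without the second knockdown-labelled one, 0.0842 without the third and 0.12 with a correction for GC content. The later fall had an adjusted p of 0.172 without the third knockdown-labelled library, 0.0936 without the second, and 0.0733 and 0.189 without the second and the third CAPN2-labelled ones, 0.0985 with upper-quartile scaling and 0.0692 with only these 2 groups fitted.

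Counts of PSMA1, PSMA2 and PSMA6 were low for core subunits, at 5.17, 0.909 and 1.03 CPM per kilobase of exon in control, while PSMA7 had 180.4. The annotation places exons of another gene over 91.0% of the coding bases of PSMA1, all those of PSMA2 and 89.7% of those of PSMA6. The sources used here do not say how reads in shared exons were counted, and these 3 values are uncertain. PSMA2 was the only one of them that passed a test, with a log2 fold change of -0.54 (SE 0.21, adjusted p = 0.0368) from knockdown-labelled to CAPN2-labelled libraries. PSMA8, the testis form, had 0 counts, which allows at most 0.198 CPM in any library, and PSMB11, the thymus form, had 2 counts in 1 CAPN2-labelled library.

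The structural beta subunits, PSMB1 to PSMB4, all fell from knockdown-labelled to CAPN2-labelled libraries and against control. With knockdown-labelled against control libraries, 0 of the 4 passed with edgeR and with DESeq2, also at an unadjusted p under 0.05. PSMB3 (chr17:38752736-38764231, plus strand, GRCh38) measured 185, 205 and 201 CPM in control, 169, 171 and 239 in knockdown-labelled and 76.5, 79.6 and 84.7 in CAPN2-labelled libraries. Its highest CAPN2-labelled library was below its lowest other library, and the log2 fold change of -1.26 (SE 0.12, adjusted p = 4.87e-08) against knockdown-labelled libraries was the largest fall of any member there. PSMB2 (chr1:35599544-35641844, minus strand) had 229, 242 and 235 CPM in control, 192, 183 and 239 in knockdown-labelled and 87.2, 95.9 and 96.2 in CAPN2-labelled libraries. Its fall against control, -1.34 (SE 0.10, adjusted p = 1.87e-09), was the largest of any member in that comparison.

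The 3 constitutive catalytic genes were lower in both comparisons of the CAPN2-labelled libraries. Their summed level was 481 ± 40.3 CPM (SD, n = 3) in control, 390 ± 48.1 in knockdown-labelled and 233 ± 13.5 in CAPN2-labelled libraries. PSMB5 (chr14:23016543-23035230, minus strand), the chymotrypsin-like subunit and the main target of proteasome inhibitors, had 166, 211 and 185 CPM in control, 138, 127 and 157 in knockdown-labelled and 73.8, 76.3 and 80.4 in CAPN2-labelled libraries. The 3 groups did not overlap, and the log2 fold change was -0.41 (SE 0.10, adjusted p = 0.00353) for knockdown-labelled against control and -0.87 (SE 0.10, adjusted p = 1.12e-06) from there to CAPN2-labelled libraries.

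PSMB7, the trypsin-like subunit, had 146, 155 and 153 CPM in control, 126, 102 and 137 in knockdown-labelled and 76.1, 70.9 and 81.9 in CAPN2-labelled libraries. The groups were again separate, with a log2 fold change of -0.31 (SE 0.10, adjusted p = 0.0212) for knockdown-labelled against control and -0.67 (SE 0.10, adjusted p = 2.4e-05) for CAPN2-labelled against knockdown-labelled libraries. The first of these calls was lost without the second knockdown-labelled library (adjusted p = 0.165), and without the second or the third control library (0.0734 and 0.0685), and with only these 2 groups fitted (0.0565). PSMB6, the caspase-like subunit, had 132, 158 and 139.6 CPM in control, 116, 117 and 148 in knockdown-labelled and 74.0, 80.1 and 86.5 in CAPN2-labelled libraries. Here 1 knockdown-labelled library reached the control range, and the difference from control, -0.17 (SE 0.11, adjusted p = 0.232), did not pass except without that library (-0.29, adjusted p = 0.0263). CAPN2-labelled libraries were lower than knockdown-labelled ones by -0.67 (SE 0.11, adjusted p = 4.18e-05).

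Among the inducible catalytic genes, PSMB10 followed another order than PSMB8 and PSMB9. PSMB10 (chr16:67934502-67937087, minus strand), which takes the place of PSMB7, measured 25.9, 30.0 and 25.4 CPM in control, 12.8, 6.27 and 9.37 in knockdown-labelled and 9.13, 12.3 and 13.9 in CAPN2-labelled libraries. All 6 libraries with the knockdown label were below all controls, and the fall of -1.53 (SE 0.20, adjusted p = 1.51e-05) in knockdown-labelled libraries was the largest of any member there. CAPN2-labelled and knockdown-labelled libraries overlapped, at 0.33 (SE 0.20, adjusted p = 0.199), with a 95% interval of -0.10 to 0.75. That difference passed without the first knockdown-labelled library (0.59, adjusted p = 0.0175) and with the correction for GC content (0.37, adjusted p = 0.0449). PSMB10 had the highest GC content of all members, 62.0%, and 60.0% of its coding bases lie in exons of the annotated gene AC040162.1, whose own level was 2.12 ± 0.631 CPM in control and 2.25 ± 0.770 in knockdown-labelled libraries.

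PSMB8, the inducible counterpart of PSMB5, had 76.7, 76.7 and 72.4 CPM in control, 70.0, 65.3 and 84.2 in knockdown-labelled and 47.7, 48.9 and 55.4 in CAPN2-labelled libraries. The first pair of groups overlapped, with a log2 difference of -0.04 (adjusted p = 0.788) whose sign changed with upper-quartile scaling. CAPN2-labelled libraries were lower than knockdown-labelled ones, at -0.53 (SE 0.10, adjusted p = 0.000329). PSMB9, the counterpart of PSMB6, had 32.5, 38.1 and 36.9 CPM in control, 27.6, 25.3 and 31.9 in knockdown-labelled and 16.3, 22.7 and 22.0 in CAPN2-labelled libraries. The groups did not overlap, with a log2 fold change of -0.34 (SE 0.13, adjusted p = 0.0434) for knockdown-labelled against control and -0.47 (SE 0.13, adjusted p = 0.0055) from there to CAPN2-labelled libraries. The first call was lost when any 1 of 4 libraries was left out, with adjusted p-values of 0.151 and 0.124 without the second or the third control and 0.0803 and 0.192 without the first or the second knockdown-labelled library. It was also lost with DESeq2 (0.0581), upper-quartile scaling (0.0752) and only these 2 groups fitted (0.0560).

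Per kilobase of exon, PSMB8 stood at 0.239 ± 0.0300 of the level of PSMB5 in control (SD, n = 3), at 0.306 ± 0.00919 in knockdown-labelled and at 0.388 ± 0.0154 in CAPN2-labelled libraries. The 3 groups did not overlap in this ratio. The length used is that of all annotated exons of a gene together, 2997 bases for PSMB8 and 1765 for PSMB5. The size of each such ratio depends on these lengths, while its differences between groups do not. PSMB10 stood at 0.173 ± 0.0131 of PSMB7 in control, 0.0742 ± 0.0203 in knockdown-labelled and 0.149 ± 0.0289 in CAPN2-labelled libraries, so that the knockdown-labelled libraries were the lowest. The size of this ratio is uncertain, since 60.0% of the coding bases of PSMB10 are shared and the counting of such reads is not known. PSMB9 over PSMB6 was 0.118 ± 0.00567 in control, 0.105 ± 0.00591 in knockdown-labelled and 0.119 ± 0.0149 in CAPN2-labelled libraries. Control and CAPN2-labelled libraries overlapped in this ratio. The knockdown-labelled ones, at 0.101 to 0.112, all lay below the controls, at 0.114 to 0.125, and overlapped the CAPN2-labelled ones. The summed level of the blood and immune markers, cells rich in inducible subunits, was 16.4 to 21.0 CPM in control, 20.1 to 26.2 in knockdown-labelled and 7.10 to 11.3 in CAPN2-labelled libraries. CD14 made up most of it, the pan-leukocyte marker PTPRC averaged at most 0.0401 CPM in any group, and the part of that list in these results was not tested.

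**Figure D3:**
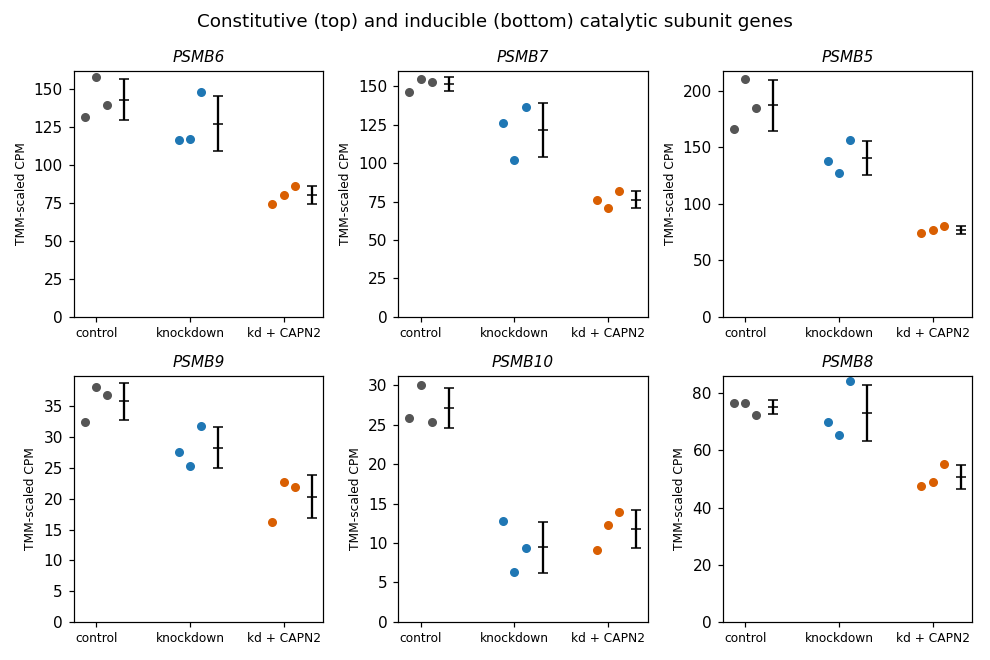
TMM-scaled CPM of the constitutive catalytic genes PSMB6, PSMB7 and PSMB5 (top) and of PSMB9, PSMB10 and PSMB8, their inducible counterparts (bottom), in each library (points), with mean and SD of 3 libraries (bars). The CAPN2-labelled libraries are lowest for 5 of the 6 genes, and for PSMB10 they overlap the knockdown-labelled ones.

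In the base of the regulatory particle, 5 of the 6 ATPase genes fell in CAPN2-labelled libraries, against knockdown-labelled and against control libraries alike, and PSMC6 passed in neither. PSMC3 had 181, 197 and 179 CPM in control, 157, 142 and 185 in knockdown-labelled and 83.7, 84.3 and 91.9 in CAPN2-labelled libraries. It was the ATPase gene with the largest fall against knockdown-labelled libraries, -0.90 (SE 0.10, adjusted p = 4.89e-07), with all CAPN2-labelled libraries below all others. PSMC1 measured 251, 269 and 244 CPM in control, 228, 162 and 200.1 in knockdown-labelled and 104, 109 and 113 in CAPN2-labelled libraries. It had the largest fall of an ATPase gene against control, -1.23 (SE 0.11, adjusted p = 1.15e-08), though 47.7% of its coding bases overlap NRDE2 on the other strand, a gene at 127 ± 4.10 CPM in control and 130.2 ± 1.14 in CAPN2-labelled libraries.

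PSMC5 had 110.4, 119 and 119.5 CPM in control, 90.7, 70.2 and 98.0 in knockdown-labelled and 63.0, 70.2 and 77.3 in CAPN2-labelled libraries. It fell in knockdown-labelled against control libraries, at -0.43 (SE 0.11, adjusted p = 0.00584), with all 3 below all controls. PSMC6 differed by -0.04 between CAPN2-labelled and control libraries, with a 95% interval of -0.25 to 0.16 on the log2 scale.

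The 3 other base genes, the scaffolds PSMD1 and PSMD2 and the ubiquitin receptor PSMD4, all fell in CAPN2-labelled libraries. PSMD2 (chr3:184298709-184309054, plus strand), which docks shuttle proteins with their ubiquitinated cargo, measured 447, 465 and 479 CPM in control, 424, 445 and 467 in knockdown-labelled and 190.1, 210.2 and 199 in CAPN2-labelled libraries. Control and knockdown-labelled libraries overlapped at -0.06 (adjusted p = 0.616), and CAPN2-labelled ones lay below all of them, at -1.16 (SE 0.08, adjusted p = 2.08e-09) against knockdown-labelled libraries. PSMD1 had folds of -1.10 there and -1.18 against control. PSMD4 had 142, 154 and 161 CPM in control, 124, 89.9 and 133 in knockdown-labelled and 85.7, 79.4 and 97.2 in CAPN2-labelled libraries. It fell in knockdown-labelled against control libraries, at -0.40 (SE 0.12, adjusted p = 0.0136), a call that was lost without the second knockdown-labelled library (adjusted p = 0.101) or the third control (0.0633).

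All 8 lid genes fell in CAPN2-labelled libraries in both comparisons, with no overlap at any of them. Their log2 fold changes ran from -0.91 to -0.41 against knockdown-labelled libraries and from -1.29 to -0.29 against control. PSMD13 had 119, 129.7 and 132 CPM in control, 113, 112 and 135 in knockdown-labelled and 57.3, 63.1 and 70.9 in CAPN2-labelled libraries, with the largest lid fall against knockdown-labelled libraries, -0.91 (SE 0.10, adjusted p = 6.44e-07). PSMD14, the deubiquitinating enzyme of the lid, stood at -0.88 in that comparison. PSMD3 (chr17:39980797-39997960, plus strand) measured 199.8, 211 and 210.1 CPM in control, 168, 119.7 and 139 in knockdown-labelled and 75.8, 83.8 and 95.2 in CAPN2-labelled libraries. It was the only lid gene to fall in knockdown-labelled libraries, at -0.54 (SE 0.11, adjusted p = 0.000876), and reached -1.29 (SE 0.11, adjusted p = 1.57e-08) in CAPN2-labelled against control libraries.

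Assembly chaperone genes were lower in the CAPN2-labelled libraries too. Of the 7 genes, 0 passed in knockdown-labelled against control libraries with edgeR and with DESeq2 (1 lower at an unadjusted p under 0.05 with each), 5 fell from there to CAPN2-labelled libraries and 7 fell in CAPN2-labelled against control libraries. Their summed level was 331 ± 9.11 CPM in control, 330.5 ± 43.6 in knockdown-labelled and 245 ± 6.98 in CAPN2-labelled libraries, 0.740 of control, while the 14 genes of the constitutive core stood at 0.571 and the 17 of the regulatory particle at 0.542 of control. The difference between these ratios was not tested.

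PSMG3, which pairs with PSMG4 to build the alpha ring, had 46.2, 47.7 and 43.2 CPM in control, 39.7, 40.3 and 54.0 in knockdown-labelled and 25.8, 32.8 and 31.0 in CAPN2-labelled libraries. Its log2 fold change of -0.58 (SE 0.12, adjusted p = 0.000745) against knockdown-labelled libraries was the largest fall of an assembly gene. PSMD5, a chaperone of the base, had 91.0, 96.0 and 94.2 CPM in control, 81.8, 103 and 101 in knockdown-labelled and 72.8, 68.2 and 66.6 in CAPN2-labelled libraries. CAPN2-labelled libraries were the lowest without overlap, at -0.46 (SE 0.10, adjusted p = 0.000599). PSMD9, another base chaperone, had 15.1, 16.0 and 14.5 CPM in control, 11.1, 13.3 and 11.7 in knockdown-labelled and 11.2, 10.2 and 12.0 in CAPN2-labelled libraries. It fell against control, at -0.45 (SE 0.13, adjusted p = 0.00585), and 68.3% of its coding bases are shared with another annotated gene.

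The activators, which open the core without the ATPase ring, divided. PSME3, a nuclear activator, had 301, 306 and 305 CPM in control, 261, 273 and 287 in knockdown-labelled and 169.8, 178 and 181 in CAPN2-labelled libraries, and fell by 0.64 on the log2 scale (SE 0.08, adjusted p = 2.61e-06) from knockdown-labelled to CAPN2-labelled libraries. PSME2, which forms a mixed ring with PSME1 and is induced by interferon gamma, had 218, 230.0 and 199.97 CPM in control, 154, 146 and 188 in knockdown-labelled and 135, 143 and 148 in CAPN2-labelled libraries. All 6 libraries with the knockdown label lay below the controls, at -0.41 (SE 0.10, adjusted p = 0.00324) for knockdown-labelled libraries, and the step to CAPN2-labelled ones was -0.20 (adjusted p = 0.105). Its partner PSME1 differed by -0.01 between CAPN2-labelled and control libraries, with a 95% interval of -0.24 to 0.22. Per kilobase, PSME1 was 2.26 ± 0.218 times PSME2 in control, 3.23 ± 0.388 in knockdown-labelled and 3.40 ± 0.0479 in CAPN2-labelled libraries, with controls below the rest without overlap. The size of this ratio depends on the annotated exon lengths, 1781 bases for PSME1 and 3582 for PSME2. Without division by length the 2 genes averaged 241 and 216 CPM in control. PSME4, the large activator, had a 95% interval of -0.10 to 0.30 for the last comparison.

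PSMF1, an inhibitor of the core, fell in all 3 comparisons. It measured 96.6, 99.2 and 95.7 CPM in control, 73.9, 59.2 and 65.3 in knockdown-labelled and 47.5, 54.9 and 53.4 in CAPN2-labelled libraries. The groups did not overlap, with a log2 fold change of -0.56 (SE 0.10, adjusted p = 0.000227) for knockdown-labelled against control, -0.35 (SE 0.10, adjusted p = 0.00663) for CAPN2-labelled against knockdown-labelled and -0.90 (SE 0.10, adjusted p = 2.73e-07) for CAPN2-labelled against control libraries. PSMC3IP, the member with no proteasome product, had 10.4, 8.02 and 6.77 CPM in control, 9.79, 9.26 and 9.55 in knockdown-labelled and 4.94, 4.78 and 6.18 in CAPN2-labelled libraries, and it too was lower in the last group, at -0.85 (SE 0.17, adjusted p = 0.000496) against knockdown-labelled libraries and -0.66 (SE 0.18, adjusted p = 0.00359) against control. Without it and the 5 members sharing at least 50% of their coding bases, 10 of 41 were lower and 1 higher in knockdown-labelled against control libraries, 35 of 41 lower in the next step, and 37 of 41 lower in CAPN2-labelled against control libraries.

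Libraries of the knockdown-labelled group differed more among themselves than the others did. The median SD of the members' log2 CPM was 0.190 in that group, 0.0704 in control and 0.0826 in CAPN2-labelled libraries. The third library of that group stood high for the members, with a median deviation from the group mean of 0.18 on the log2 scale, while the other two stood at -0.07 and -0.09. Over all genes these medians were at most 0.01 from 0. Without it, 19 members were lower and 0 higher in knockdown-labelled against control libraries, beside 18.1% and 15.3% of all genes, with a median of -0.19, beside -0.01. In CAPN2-labelled against knockdown-labelled libraries 31 were then lower, beside 23.3% of all genes. The single member called higher against control became 4 without the first knockdown-labelled library and 0 without the second control.

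The members' fold changes also followed GC content in the comparison of knockdown-labelled with control libraries. Spearman's rho across the 47 members, as a description of genes measured in the same libraries, was -0.616 there, -0.104 for CAPN2-labelled against knockdown-labelled and -0.488 for CAPN2-labelled against control libraries. Across all genes it was -0.367, -0.086 and -0.292. With counts corrected for GC content and length, 15 members were lower in knockdown-labelled against control libraries, beside 19.9% of all genes. In CAPN2-labelled against knockdown-labelled libraries 41 were then lower and 1 higher, beside 30.9% and 23.4% of all genes, and against control 43 were lower, beside 32.4%. The part of GC content in single values was not tested.

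**Figure D4:**
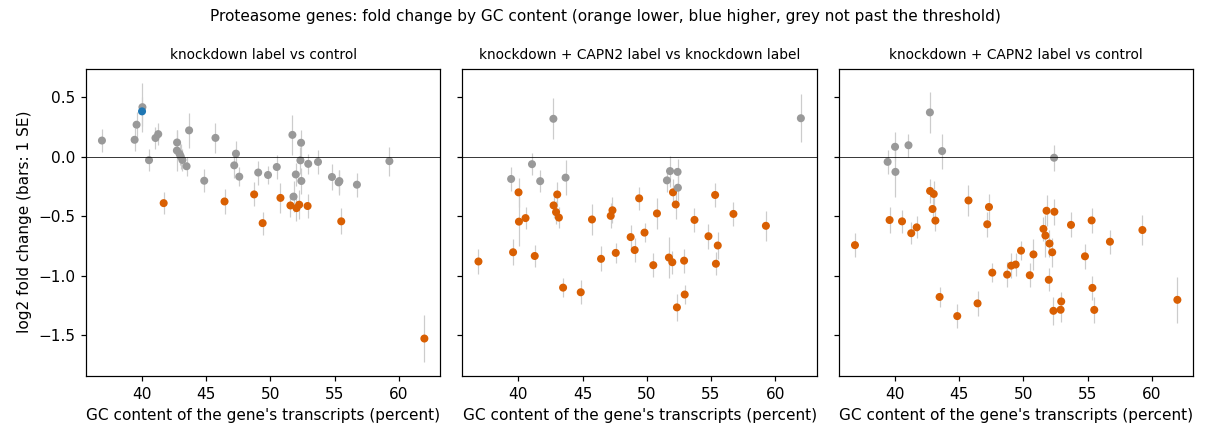
Log2 fold change of each tested member against the GC content of its annotated transcripts, with bars of 1 SE, in the 3 comparisons. Orange marks lower, blue higher and grey not past the threshold; the left panel falls with GC content (rho = -0.616), with PSMB10 at 62.0% GC and -1.53 at the lower right, and the middle panel shows little slope (rho = -0.104).

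Other genes of the pathway, in lists chosen with earlier results of these data known, included higher and lower ones, as did all genes tested. Of all genes, 16.0% were higher and 18.5% lower in knockdown-labelled against control libraries. These shares were 23.7% and 25.6% in CAPN2-labelled against knockdown-labelled libraries, and 27.9% and 28.4% in CAPN2-labelled against control libraries. They stand beside the counts of each list below, several of which are near them. Of 20 tested accessory factors, 4 were higher and 3 lower in knockdown-labelled against control libraries, 1 higher and 12 lower in CAPN2-labelled against knockdown-labelled, and 3 higher and 13 lower in CAPN2-labelled against control. POMP, the chaperone that completes the beta ring, had 99.8, 88.7 and 96.5 CPM in control, 105, 107 and 128 in knockdown-labelled and 71.3, 79.7 and 73.9 in CAPN2-labelled libraries. Knockdown-labelled libraries were the highest and CAPN2-labelled the lowest without overlap, at 0.25 (SE 0.10, adjusted p = 0.0464) for the first comparison and -0.60 (SE 0.10, adjusted p = 4.62e-05) for the second. ADRM1, a ubiquitin receptor, stood at -0.57 (adjusted p = 0.00023) from knockdown-labelled to CAPN2-labelled libraries and SEM1, a small lid subunit, at -0.09 (adjusted p = 0.64).

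The strongest accessory calls also included enzymes that bind the proteasome. USP14, a deubiquitinase on the base, had a log2 fold change of -0.80 and PITHD1, a proteasome-associated protein, of -0.74 for CAPN2-labelled against knockdown-labelled libraries, while UBLCP1, a proteasome phosphatase, rose by 0.59. Against control, PITHD1 reached -1.38, and UBLCP1 and ZFAND2A were higher by 0.87 and 0.73. In knockdown-labelled against control libraries, AKIRIN2 and ZFAND5 were higher by 0.43 and 0.39, and PITHD1 and UBQLN4 stood at -0.64 and -0.47.

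NFE2L1, which drives proteasome gene transcription, was highest in the libraries where the proteasome genes were lowest. It had 311, 318 and 309 CPM in control, 254, 199 and 194 in knockdown-labelled and 494, 534 and 574 in CAPN2-labelled libraries. The groups did not overlap, and the log2 fold change was -0.54 (SE 0.10, adjusted p = 0.000421) for knockdown-labelled against control and 1.31 (SE 0.10, adjusted p = 6.48e-09) for CAPN2-labelled against knockdown-labelled libraries. Its relative NFE2L2 also rose, with 153, 128 and 155 CPM in control, 158, 197 and 207 in knockdown-labelled and 276, 280.5 and 253 in CAPN2-labelled libraries. These are RNA levels, and the NFE2L1 protein is known to be held in check by degradation and to need processing, which RNA does not show.

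Of the 12 genes of the NFE2L1 route, 5 were higher and 4 lower in knockdown-labelled against control libraries, 5 and 4 in the step to CAPN2-labelled libraries, and 7 and 4 in CAPN2-labelled against control libraries. SYVN1, a ubiquitin ligase for NFE2L1 at the endoplasmic reticulum, and OGT, which glycosylates its partner HCFC1, rose from knockdown-labelled to CAPN2-labelled libraries by 1.27 and 1.49, and against control by 1.56 and 1.302. DDI2, the protease that activates NFE2L1, stood at -0.84 (adjusted p = 1.75e-05) in knockdown-labelled and -0.78 (adjusted p = 1.1e-05) in CAPN2-labelled libraries against control. MAFK and HCFC1 fell in the step to CAPN2-labelled libraries, at -0.74 and -0.39, and KEAP1 and HCFC1 against control, at -0.86 and -0.92. In knockdown-labelled against control libraries, MAFF and MAFG were higher by 0.62 and 0.29, and KEAP1 was at -0.73.

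**Figure D5:**
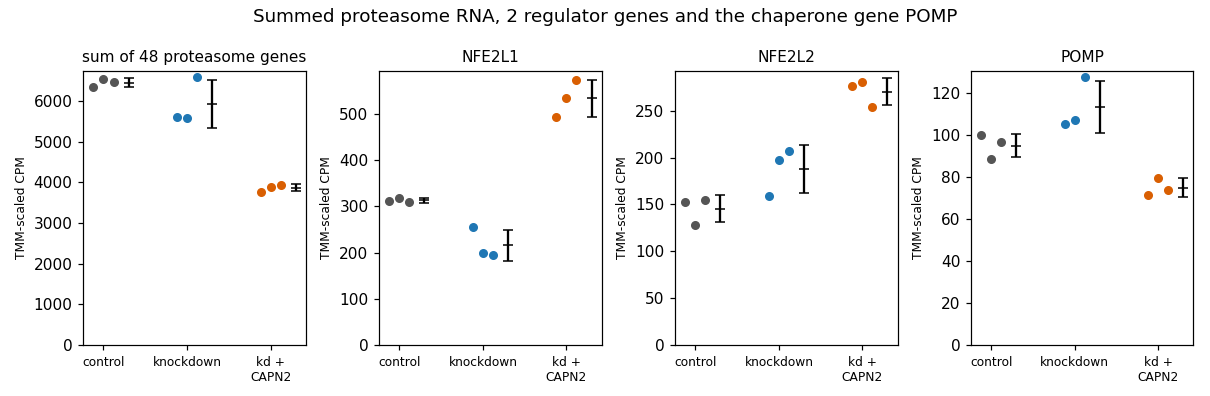
TMM-scaled CPM in each library (points, with mean and SD of 3 libraries) of the sum over 48 proteasome genes, of the regulators NFE2L1 and NFE2L2 and of the chaperone gene POMP. The sum is lowest in CAPN2-labelled libraries (3776 to 3942 CPM), where NFE2L1 is highest (494 to 574 CPM).

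Ubiquitin and its activating enzymes divided by gene. Of 6 genes, 2 were higher and 1 lower in knockdown-labelled against control libraries, 0 and 3 in the step to CAPN2-labelled libraries (0 higher also with DESeq2 and at an unadjusted p under 0.05), and 2 and 3 in CAPN2-labelled against control libraries. UBB, which encodes a chain of ubiquitin units, fell in CAPN2-labelled against control libraries, at -0.80, with 56.2% of its coding bases shared with an antisense gene, and the activating enzyme genes UBA1 and UBA6 stood at -0.54 and 0.68. In the step from knockdown-labelled libraries UBA1 and UBB stood at -0.44 and -0.48. In knockdown-labelled against control libraries UBA6 was higher by 0.47, and UBB was at -0.32.

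Of 12 genes of the VCP segregase, which pulls ubiquitinated proteins out of membranes and complexes, 1 was higher and 4 lower in knockdown-labelled against control libraries, 2 and 3 in the step to CAPN2-labelled libraries, and 2 and 5 in CAPN2-labelled against control libraries. VCP itself and its cofactor UFD1 fell in that step, at -0.33 and -0.73, and against control, at -0.38 and -0.60. DERL2, a channel component of the endoplasmic reticulum, rose by 0.76 and UBXN6 by 0.39 in the step, and DERL2 and UBXN4 by 1.11 and 0.40 against control. DERL2 was also higher in knockdown-labelled against control libraries, by 0.35, and UBXN6 and UBXN1 were at -0.53 and -0.31.

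Of 14 antigen presentation genes, whose peptides the inducible subunits help to make, 3 were higher and 3 lower in knockdown-labelled against control libraries, 5 and 1 in the step to CAPN2-labelled libraries, and 5 and 4 in CAPN2-labelled against control libraries. IRF1, a factor that activates the inducible subunit genes, had 78.9, 76.6 and 79.0 CPM in control, 49.6, 50.9 and 57.2 in knockdown-labelled and 80.1, 82.8 and 87.4 in CAPN2-labelled libraries. It was lowest in knockdown-labelled libraries, while of the inducible genes PSMB10 had its lowest mean there and PSMB8 and PSMB9 had theirs in CAPN2-labelled libraries. The step of PSMB10 to CAPN2-labelled libraries did not pass (adjusted p = 0.199), and 60.0% of its coding bases are shared. In CAPN2-labelled against control libraries PSMB10 was at -1.20 and IRF1 at 0.09 (adjusted p = 0.385). The log2 fold change of IRF1 was -0.57 (SE 0.09, adjusted p = 7.97e-05) for knockdown-labelled against control and 0.67 (SE 0.09, adjusted p = 6.13e-06) in the step to CAPN2-labelled libraries, though 59.5% of its coding bases are shared with another annotated gene. ERAP1, a peptide-trimming enzyme, and NLRC5, an activator of HLA class I genes, rose in that step by 1.08 and 0.81, and against control by 1.07 and 0.76. The peptide-loading genes TAPBP and TAP2 fell against control, at -0.31 and -0.31, and 98.6% of the coding bases of TAP2 are shared with another annotated gene. HLA-B and B2M were higher in knockdown-labelled than in control libraries by 0.88 and 0.43, and HLA-E was at -0.35.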

How the data were processed

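The authors deposited a table of 58735 genes with raw, whole-number read counts that were not normalised. HISAT2 2.0.5, StringTie 1.3.3b, featureCounts 1.5.0-p3 and the build hg19 are named, with no roles, per the submitters' processing notes. Gene coordinates in the deposited table equal those of GENCODE v29 on GRCh38 for 58735 of 58735 genes, so GRCh38 is used. The library kit does not mark strand, per the labels' protocols, and the sources used here do not give the settings for strand, shared exons and multiply mapped reads. Among pseudogenes of the members, 32 gene models held 1617 counts (0.196% of the members' 823868 counts).

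The test was run on the deposited counts with edgeR 4.0.16 (R 4.3.3): filterByExpr (at least 10 counts), TMM scaling, a robust quasi-likelihood fit with 1 term per group to all 9 libraries (6 residual degrees of freedom), and Benjamini-Hochberg adjustment over 16812 genes, with calls at an adjusted p under 0.05. SE is the absolute log2 fold change over the square root of F. The fit code was run on simulated counts with few changed genes and 1 spread for all libraries. These data differ in both, so that run does not measure the error of the calls given here. Depths of 15158607 to 19737562 counts limit precision, and floors of 3 counts cover counting error only. Alternatives were other scalings, DESeq2 1.42.0, no filter, fewer libraries, a replicate block, a correction for GC content and length (splines with 5 degrees of freedom), and an adjusted p under 0.01.

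Values in every library are given for the catalytic and inducible genes, for the called member with the largest rise and fall of each role and comparison among those without overlap, and for members called in opposite directions. Other members were named after their values were seen. Of each pathway list, up to 2 risen and 2 fallen genes with the lowest adjusted p are named per comparison, with POMP, SEM1, ADRM1, NFE2L1 and IRF1 always, and some genes that the rule names are not reported here; NFE2L2 and DDI2 were followed across comparisons after their values were seen. The members, lists and rules were chosen with earlier results of these data known. Marker lists for fibroblasts (1 of 5 tested; mean summed level 9.00, 12.0 and 14.6 CPM in control, knockdown-labelled and CAPN2-labelled libraries) and endothelium (2 of 5; 20.6, 45.8 and 16.4 CPM) were also summed. Of the endothelial sum CDH5 made up most (14.8, 43.2 and 13.7 CPM), and VWF was lower in knockdown-labelled than in control libraries (5.67 to 2.44 CPM, log2 -1.21, adjusted p = 0.000171). Promoter windows come from RefSeq, GRCh38.p14.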

Additional observations from a re-analysis of the deposited data

How the results depend on the processing

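All 37 members lower against knockdown-labelled and all 40 lower against control in CAPN2-labelled libraries had fold changes below 0 in the 14 refits of each comparison, and the alternatives called 31 to 41 and 37 to 43 members lower. In knockdown-labelled against control libraries, leaving out 1 library gave 8 to 19 members lower and 0 to 4 higher, with medians from -0.186 to -0.027; the lowest median came without the third knockdown-labelled library. The count of members higher there was 3 with upper-quartile scaling, 2 with relative log expression scaling, 2 with no filter, 2 with DESeq2, 0 with the GC and length correction, 0 with that correction and the replicate block, and 0 at an adjusted p under 0.01. Members higher in CAPN2-labelled against knockdown-labelled libraries numbered 1 with the GC and length correction and 0 to 1 without 1 library (1 without the first or the third knockdown-labelled one); against control they numbered 1 with upper-quartile scaling, 1 with only the 2 groups fitted and 0 to 1 without 1 library (1 without the second CAPN2-labelled one). Upper-quartile scaling moved the median of all genes in CAPN2-labelled against control libraries from 0.02 to 0.13, and that of the members to -0.54. The sign of PSMB8 in knockdown-labelled against control libraries turned with upper-quartile scaling (0.0013), with the GC and length correction (0.067), with that correction and the replicate block (0.062) and without the second knockdown-labelled library (0.064, in a range from -0.154 over single libraries left out), and it passed in none of them. The sign of PSMA3 in CAPN2-labelled against control libraries turned with the GC and length correction (-0.15), with the replicate block added (-0.15) and without the second control (-0.001, in a range up to 0.166 over single libraries left out), and it passed in none of them. The cause of these changes was not tested. The replicate numbers share no stated batch or day, and libraries with the same number correlated at -0.111 to 0.063 over 9 pairs, so the numbers do not pair the samples; with a replicate block 11 members were lower and 1 higher in knockdown-labelled against control libraries, 35 were lower in CAPN2-labelled against knockdown-labelled and 40 against control, and PSMA3 no longer passed in the step to CAPN2-labelled libraries (adjusted p = 0.0796). The comparison without PSMC3IP and members with shared coding bases was chosen after seeing the data. Depth limits PSMA8 and PSMB11, which lie at or under the floor of 3 counts per library.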
